A study of Mus musculus with 6 samples.

Results

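Antibody and B-lineage transcripts were followed across all 6 arrays of mouse skin through 8 genes: Igha, Ighm, Jchain (Igj on older arrays), Cd79a, Cd79b, Ms4a1, Pou2af1 and Mzb1. Every probe set whose platform annotation names only 1 of these genes was taken, which gave 7 of the 12393 genes measured and 20 of the 22626 probe sets that are not controls. Ighm had 11 of them, Igha 3, Ms4a1 2, and Jchain, Cd79a, Cd79b and Pou2af1 1 each. Mzb1 had 0 and is not analysed here. All 20 were read on every array, and 10 of them, from 5 genes, reached a signal of 165, the median of all values, on at least 1 array.

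The skin came from C57BL/6 mice with a subcutaneous pump that ran for 7 days. Skin at the pump outlet was sampled after release of PBS, IL-13 or TSLP (1 array each) and of TGF-beta (2 arrays, mouse 1 and mouse 2), and 1 further array holds PBS-group skin of the abdomen, distant from the outlet. Every mouse therefore carried a pump, and the labels give no dose, age or sex and do not say whether the outlet and distal PBS samples share a mouse. Outlet and distal skin also differ in body site, so pump and site cannot be told apart. The arrays had medians of 160.2 to 171, and all 9 skin markers examined, among them Krt5, Krt14 and Col1a1, were above 165 on every array. The 14 exocrine pancreas genes with a probe set differed widely between arrays, with a summed signal of 1298 in distal skin and 2474 to 18972 in outlet skin.

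B cells carry a membrane antibody whose signal is passed on by the CD79A and CD79B chains, and they display CD20, the product of Ms4a1. On activation some become plasma cells, which secrete antibody: Ighm encodes the heavy chain of IgM, Igha that of IgA, and Jchain the joining chain that links IgM and IgA into polymers. Pou2af1 encodes a B-lineage coactivator that works with octamer-binding factors. Skin holds few B cells at rest. In whole tissue, fewer cells of a type and less RNA per cell cannot be told apart.

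Of the members with a probe set, Jchain, Cd79a and Pou2af1 have a promoter in the RefSeq set of the assembly GRCm38.p6. These 3 promoters are shown because their genes were low together in distal skin. The 250 bases before each start site read 5′ to 3′ on the gene's strand, with matches to the motifs searched in capitals.
Jchain, chr5:88527898-88528147, minus strand: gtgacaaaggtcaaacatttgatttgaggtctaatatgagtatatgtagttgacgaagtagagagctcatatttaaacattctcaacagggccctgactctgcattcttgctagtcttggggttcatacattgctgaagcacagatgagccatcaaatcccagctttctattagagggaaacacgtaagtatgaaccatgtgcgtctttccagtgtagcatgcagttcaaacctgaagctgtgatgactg
Cd79a, chr7:24897247-24897496, plus strand: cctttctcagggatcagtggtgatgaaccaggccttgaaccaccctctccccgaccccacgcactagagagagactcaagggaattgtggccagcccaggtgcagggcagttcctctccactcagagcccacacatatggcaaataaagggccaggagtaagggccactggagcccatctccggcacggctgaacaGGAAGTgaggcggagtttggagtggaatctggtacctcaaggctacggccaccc
Pou2af1, chr9:51213440-51213689, plus strand: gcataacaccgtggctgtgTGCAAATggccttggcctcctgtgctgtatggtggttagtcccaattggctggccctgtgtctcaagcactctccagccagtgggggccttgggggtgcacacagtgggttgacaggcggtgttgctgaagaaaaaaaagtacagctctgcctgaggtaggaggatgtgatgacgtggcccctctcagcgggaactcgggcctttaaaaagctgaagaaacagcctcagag
Each search covered both strands of 300 bases, from 250 before the start site to 50 after it. The octamer ATGCAAAT had 0 matches in the 3 promoters, against 1.74% of 32851 promoters that hold it. Its last 7 letters, TGCAAAT, occurred at position -231 of Pou2af1 and in 4.02% of all promoters. The Ets core GGAAGT occurred at position -54 of Cd79a and in 23.8% of all. The motif letters were chosen after the sequences were seen, and a match describes letters only.

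Igha, the IgA heavy chain, had 3 probe sets that ordered the arrays almost alike. Probe set 1421653_a_at read 872 in PBS outlet skin, 125 in distal skin, 223 under IL-13, 481 under TSLP, 533 in TGF-beta mouse 1 and 130.5 in mouse 2. Probe set 1425763_x_at read 666, 132, 255, 371, 464 and 124 in the same order. Probe set 1429381_x_at read 544, 97.4, 211, 300.5, 381 and 91.8. In all 3, PBS outlet skin was highest, distal skin and TGF-beta mouse 2 were lowest and close together, and IL-13 lay between. The x_at and s_at suffixes mark probe sets that can bind related transcripts.

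The joining chain gene Jchain had another order. Its probe set read 369 in PBS outlet skin, 85.0 in distal skin, 421 under IL-13, 367 under TSLP, 469.5 in TGF-beta mouse 1 and 131 in mouse 2. Distal skin and mouse 2 were again low, while the 4 other arrays stayed within a narrow band in which IL-13 was not low.

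The B cell surface genes followed the same split. Ms4a1, encoding CD20, read 418, 51.4, 311, 328, 360.1 and 115 at probe set 1423226_at, with the arrays in the order PBS outlet, distal, IL-13, TSLP, TGF-beta mouse 1 and mouse 2. Its second probe set, 1450912_at, read 159, 23.0, 119, 128, 124 and 43.5, below 165 on every array, in a similar order. Cd79b, a signalling chain of the B cell receptor, read 265, 67.6, 197, 216, 219 and 137. Distal skin was the lowest array for each of these 3 probe sets, and mouse 2 the lowest outlet array.

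Cd79a and Pou2af1 were below 165 on every array, with distal skin lowest and mouse 2 next in both. Their order among the other 4 arrays differed. Cd79a, the partner of Cd79b, read 52.4 in PBS outlet skin, 13.2 in distal skin, 35.9 under IL-13, 46.1 under TSLP, 47.1 in mouse 1 and 28.5 in mouse 2. Pou2af1 read 144, 37.1, 126, 153, 126 and 65.8. They entered no test, and at such signals a difference on the log2 scale used here is understated.

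The 11 Ighm probe sets gave more than 1 pattern. Probe set 1427351_s_at read 3519 in PBS outlet skin, 1544 in distal skin, 3329 under IL-13, 4269.9 under TSLP, 3945 in mouse 1 and 2476 in mouse 2. Probe set 1427329_a_at read 1661, 666, 1294, 2109, 1356 and 887, and 1425385_a_at read 198, 47.5, 481, 276, 271 and 66.4. In these 3 the distal array was lowest and mouse 2 next, as for the B cell genes. TSLP was highest in the first pair and IL-13 in the last.

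Another Ighm probe set, 1427870_x_at, read 302 in PBS outlet skin, 157 in distal skin and 124 to 154 on the cytokine arrays. PBS outlet skin stood alone there, with distal skin above every cytokine array. The dim probe sets 1427756_x_at, 1425247_a_at and 1425324_x_at were likewise highest in PBS outlet skin, at 105, 136 and 73.1, with their other 5 arrays at 24.2 to 44.2, 43.5 to 83.1 and 12.1 to 36.2. The remaining 4 Ighm probe sets stayed at or below 38.5 on every array. The annotation names Ighm for all 11, and what part of the transcript each binds was not analysed here.

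**Figure D1:**
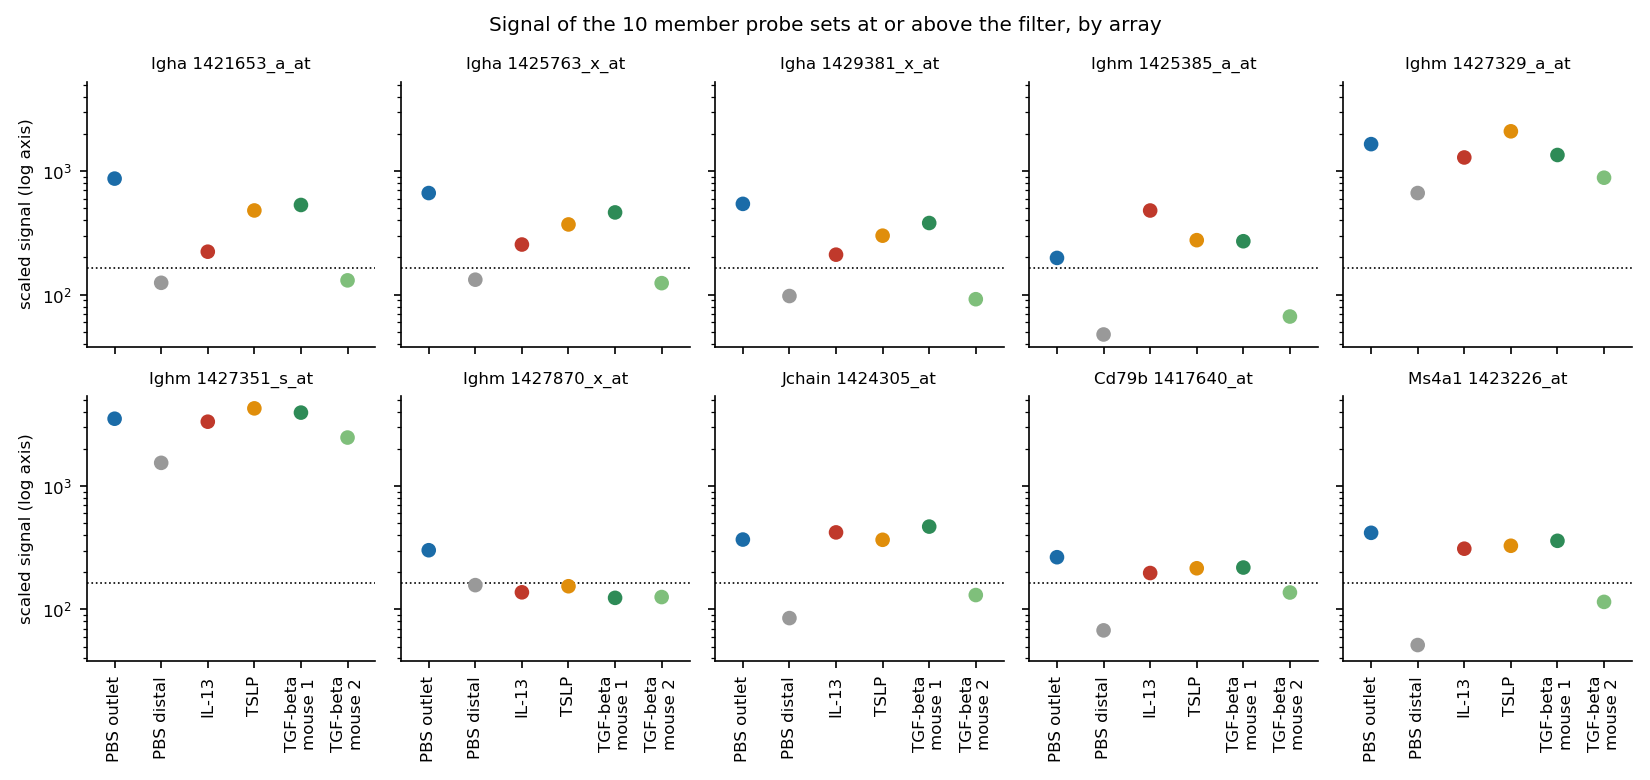
Scaled signal (log axis) of the 10 member probe sets that reached 165 on at least 1 array, 1 point per array, with 165 as a dotted line. Distal skin and TGF-beta mouse 2 are the low arrays for most of them, whereas Ighm 1427870_x_at is high only in PBS outlet skin, at 302.

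The distal and outlet PBS arrays were set against each other first, to ask how the skin around a control pump differs from skin elsewhere. Differences are given as log2(signal + 27.4), an offset taken from the 25th percentile of the signals, and a probe set entered if 1 compared array reached 165. With 1 array on each side there is no replicate check. Ms4a1 was lower in distal skin by 2.50 on that scale and the 3 Igha probe sets by 2.12 to 2.56. Jchain was lower by 1.82, Cd79b by 1.62, and the Ighm probe sets 1425385_a_at, 1427329_a_at and 1427351_s_at by 1.17 to 1.59.

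At least a 2-fold lower signal in distal skin was thus seen for 9 of the 10 member probe sets, where 3.29% of the 11883 probe sets entered were that much lower. The tenth, Ighm 1427870_x_at, differed by -0.83. Of these 9, 7 were below 165 in distal skin and entered through their outlet signal alone, so this count partly follows from the filter. With no filter 12 of all 20 were at least 2-fold lower, against 2.26% of all 22626 probe sets, and 2 members had both arrays at or above 165. The members' median difference was -1.72, and that of all probe sets was near 0.

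Setting all 5 outlet arrays against the distal array gives a test, since the outlet arrays supply a spread, although that spread holds the agents as well as the mice. The single distal array has no replicate and was assumed to vary like the outlet arrays, which applies to every such test below. By limma with Benjamini-Hochberg adjustment over all probe sets, the closest members were Ighm 1427351_s_at, higher at the outlet by 1.15 ± 0.26 (SE; adjusted p = 0.0586), and Cd79b, by 1.28 ± 0.29 (adjusted p = 0.0601). Ms4a1 was higher by 1.98 ± 0.53 (adjusted p = 0.0849) and Jchain by 1.65 ± 0.53 (adjusted p = 0.139). The Igha probe sets were higher by 1.16 to 1.39, with adjusted p from 0.388 to 0.403. None of these passed the threshold of 0.05.

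Of the 10 members entered, 0 passed limma's adjusted threshold and 6 had an unadjusted p under 0.05. Over all 12431 probe sets entered, 2.13% passed as higher at the outlet and 10.7% were higher with an unadjusted p under 0.05. By size alone, 9 of the 10 were at least 2-fold higher, against 3.61% of all. Again 7 of the 9 entered only through outlet arrays, and 2 had every array at or above 165. With no filter 11 of all 20 were at least 2-fold higher, against 2.26% of all. An exact permutation test of 1 array against 5 cannot give a p below 0.167.

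The calls turned on TGF-beta mouse 2. Of the 6 members named next, Ms4a1, Jchain, Cd79b and Ighm 1425385_a_at were below 165 in distal skin and entered through outlet arrays alone. Mouse 2 was the lowest outlet array for 9 of the 10 members, so leaving it out had to raise their differences. Without that array, limma's adjusted threshold was passed by 6 members: Ms4a1 rose by 2.27 (adjusted p = 0.00532), Jchain by 1.94 (0.0065), Ighm 1425385_a_at by 2.09 (0.0324), Cd79b by 1.40 (0.0178), Ighm 1427351_s_at by 1.26 (0.0142) and Ighm 1427329_a_at by 1.21 (0.0436). All probe sets past the threshold went from 381 to 622 in the same step. The Igha probe sets still missed it, at adjusted p from 0.0738 to 0.128.

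Counted without a test, distal skin was below all 5 outlet arrays for 7 of the 10 members entered, against 23.7% of all probe sets entered. The 3 exceptions were the Igha probe sets 1425763_x_at and 1429381_x_at, where mouse 2 was lower still, and Ighm 1427870_x_at. Without the filter the count was 13 of 20, against 21% of all 22626 probe sets.

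**Figure D2:**
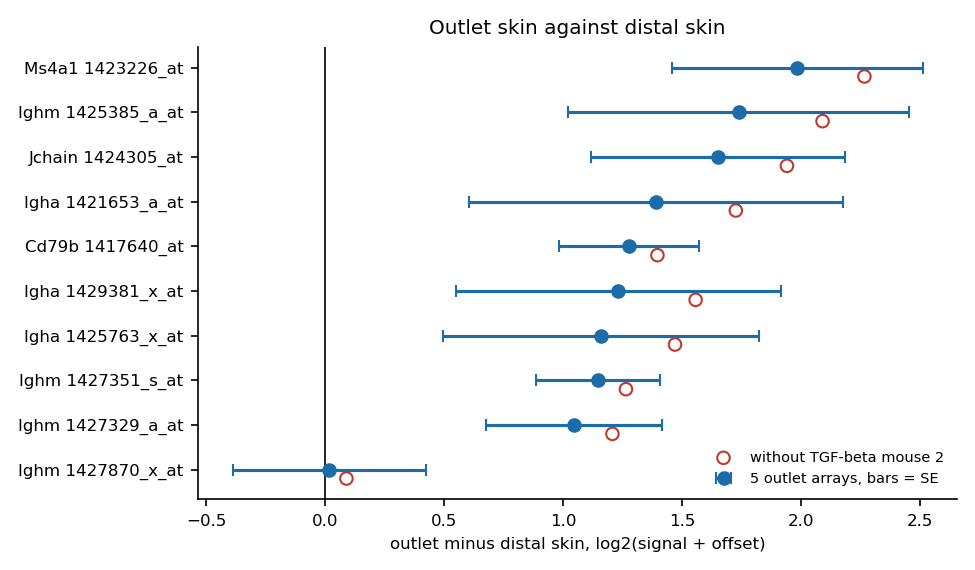
Fitted difference between the 5 outlet arrays and distal skin in log2(signal + 27.4) for the 10 members entered (filled points, bars are SE), with the value after leaving out TGF-beta mouse 2 as open points. Ms4a1 is highest at 1.98 and Ighm 1427870_x_at lies at 0.02, and every open point lies to the right of its filled point. The array left out was the lowest outlet array for 9 of these 10.

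The TGF-beta mice, which received the same agent, differed more than the TSLP and PBS outlet arrays did for most of these genes. Mouse 2 was at least 2-fold below mouse 1 for 6 of the 9 members entered, against 0.757% of the 11751 probe sets entered, and the members' median difference was -1.65. The 6 were the 3 Igha probe sets, Ighm 1425385_a_at, Jchain and Ms4a1. All 6 were below 165 in mouse 2 and entered through mouse 1, so the count partly follows from the filter. With no filter 7 of all 20 were that much lower, against 0.694% of all, and of the 2 members at or above 165 in both mice 0 were. As deposited signals, mouse 1 exceeded mouse 2 by 4.09-fold at Igha 1421653_a_at, 3.59-fold at Jchain and 3.13-fold at Ms4a1 1423226_at. Mouse 2 was the lowest outlet array for 9 of the 10 members that reached 165, against 25% of probe sets, and for 13 of all 20, against 24.5% without the filter.

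Mouse 2 differed from distal skin by only 0.05, -0.08 and -0.07 at the Igha probe sets. For Jchain it stood above distal skin by 0.49, for Cd79b by 0.79 and for Ms4a1 1423226_at by 0.85. Thus Igha was as low in mouse 2 as in distal skin, whereas the B cell surface genes lay between distal skin and the other outlet arrays.

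TGF-beta skin was then compared with PBS outlet skin, to ask what the cytokine does beyond the pump. The mean of the Igha probe sets 1421653_a_at, 1425763_x_at and 1429381_x_at over both mice was lower by 1.60 ± 0.75, 1.35 ± 0.70 and 1.37 ± 0.74 (SE), and the values of mouse 1 were -0.68, -0.50 and -0.49. Jchain differed by 0.33 in mouse 1 and -1.32 in mouse 2, which have opposite signs. By limma, 0 members passed the adjusted threshold (lowest adjusted p = 0.861) and 1 had an unadjusted p under 0.05, while 0% of all 12035 probe sets passed and 2.55% were lower with an unadjusted p under 0.05.

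That 1 member was Ighm 1427870_x_at, which was lower by 1.12 in mouse 1 and 1.10 in mouse 2 (adjusted p = 0.861) and was also the 1 member at least 2-fold lower in both mice, against 0.141% of all. It entered through PBS outlet skin alone, and with every compared array at or above 165 the count was 0. No member was at least 2-fold higher in both, against 0.174%. Its TSLP and IL-13 arrays were lower as well, by 0.86 and 1.00, and these comparisons share the PBS outlet array. The mouse pair alone gave this fit its spread, which leaves 1 residual degree of freedom, and the single PBS array was assumed to vary like them.

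IL-13 skin separated Igha from Jchain and from some of the Ighm probe sets. Against PBS outlet skin the Igha probe sets were lower by 1.85, 1.30 and 1.26, and these were the 3 members at least 2-fold lower, against 0.408% of the 11765 probe sets entered. Jchain differed by 0.18, Ighm 1427351_s_at by -0.08 and Ighm 1427329_a_at by -0.35. Other Ighm probe sets were low with Igha, 1427870_x_at by 1.00 and the dim 1427756_x_at, 1425324_x_at and 1425247_a_at by 1.16, 1.13 and 0.97. Cd79b and Ms4a1 1423226_at differed by -0.38 and -0.40. Ighm 1425385_a_at was the 1 member at least 2-fold higher, by 1.17, against 1.13% of all. The IL-13 array was the lowest outlet array for 0 of the 10 members, since mouse 2 or, for Ighm 1427870_x_at, mouse 1 lay below it, and 20.9% of all probe sets had IL-13 lowest. There is 1 IL-13 array, so these differences have no replicate check.

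TSLP skin was closer to the PBS outlet array. No member of the 10 was at least 2-fold higher or lower, where 0.988% and 0.389% of all 11839 probe sets were. The Igha probe sets were lower by 0.80 to 0.82, Ighm 1427329_a_at was higher by 0.34 and Ighm 1427351_s_at by 0.28, and Jchain differed by -0.01. TSLP also has 1 array and no replicate check.

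**Figure D3:**
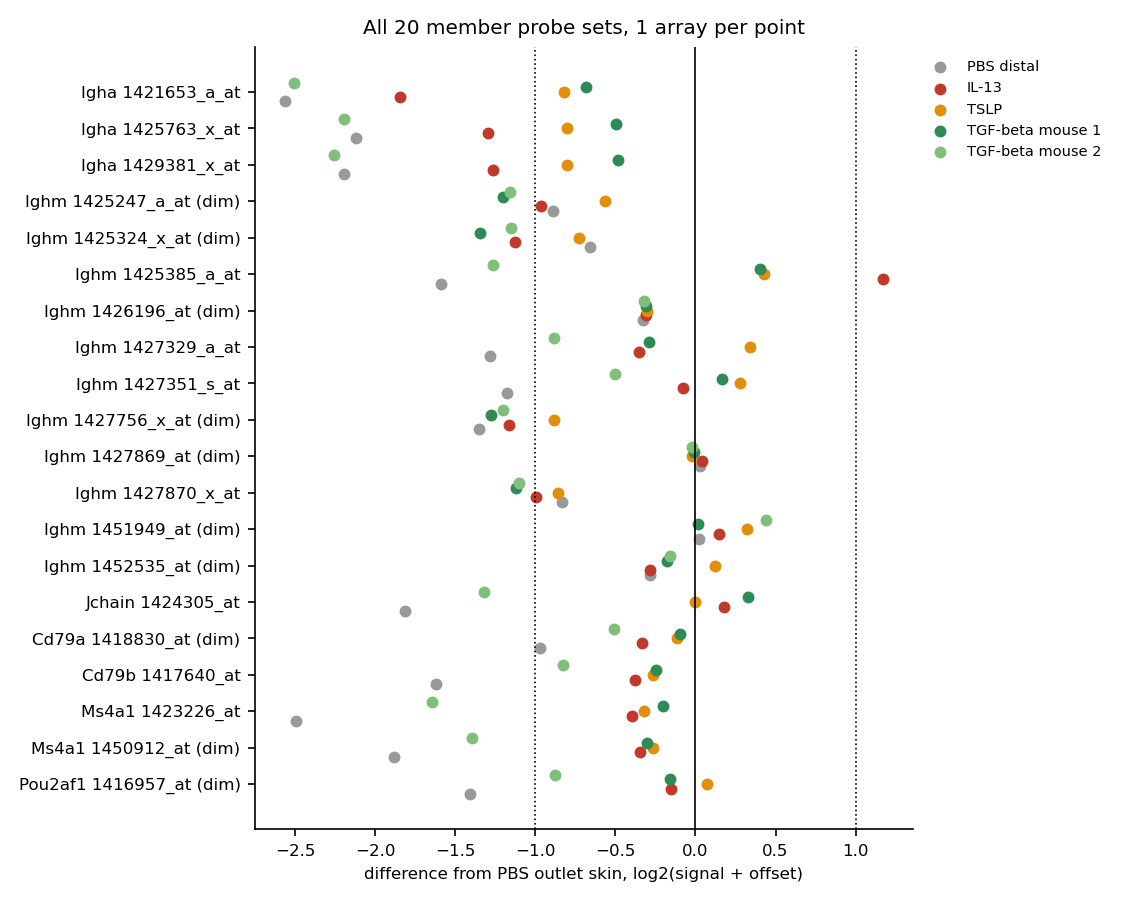
Difference of each array from PBS outlet skin in log2(signal + 27.4) for all 20 member probe sets, 1 point per array, with dotted lines at a 2-fold change; probe sets marked dim stayed below 165 on every array. Igha is low under IL-13, at -1.85 for its first probe set, where Jchain lies at 0.18, and the Ighm probe sets fall into more than 1 pattern.

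TGF-beta skin was also set against the IL-13 and TSLP arrays in the same fit. Against IL-13, 0 of the 9 members entered passed limma's adjusted threshold, and 0 had an unadjusted p under 0.05, as 0.646% of all probe sets did as higher and 1.62% as lower. None of the 9 was at least 2-fold apart in both mice, against 0.0252% higher and 0.327% lower. Against TSLP, 0 of 9 passed (lowest adjusted p = 0.547) and 1 had an unadjusted p under 0.05, Ighm 1427329_a_at, lower by 0.93 ± 0.29, where 4.25% of all probe sets were lower at that level. None of these 9 was at least 2-fold apart in both mice, against 0.157% higher and 0.448% lower. Over all probe sets 0% passed in either comparison. For Ighm 1425385_a_at, IL-13 skin exceeded mouse 1 by 0.77 and mouse 2 by 2.44.

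Antibody light chains, which pair with these heavy chains, were read by other probe sets, collected after the annotation and values had been seen. Of 29 kappa probe sets 4 reached 165 on some array. So did 2 of 3 lambda probe sets and 1 of 5 of other heavy chains. In these 7 distal skin was the lowest array, as it was for 23.7% of all probe sets entered. Only the 3 kappa probe sets described next reached 165 in distal skin. The others entered through outlet arrays alone, so the count partly follows from the filter. A group of 3 kappa probe sets, each annotated to the same 5 genes including Igkc, the kappa constant region, rose at the outlet by limma. The probe set 1427455_x_at read 1862 in PBS outlet skin, 265 in distal skin, 1527 under IL-13, 1659 under TSLP, 1809.8 in mouse 1 and 665 in mouse 2. Distal skin and mouse 2 were the low arrays here too.

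By limma that probe set was higher at the outlet by 2.31 (adjusted p = 0.0487), and 1427660_x_at and 1452417_x_at by 1.53 (adjusted p = 0.0482) and 1.47 (adjusted p = 0.0431). These calls are near the threshold. They were lost without the PBS outlet, IL-13, TSLP or TGF-beta mouse 1 array, at adjusted p from 0.0614 to 0.106, and kept without mouse 2, at 0.00211 to 0.00561. They were also lost with no filter on dim probe sets, at 0.0772 to 0.0832. Iglv1, a lambda variable gene, read 229, 48.6, 168, 207, 214 and 81.5 and was higher at the outlet by 1.39 (adjusted p = 0.132 by limma). Igkv8-30, a kappa variable gene, read 507, 101, 378, 482, 479.7 and 172 and was higher by 1.66 (adjusted p = 0.107 by limma).

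The wider B cell list held 29 genes, of which 14 entered the comparison of outlet with distal skin. By limma 3 of them rose at the outlet and 0 fell, where 2.44% of all 7945 genes rose. Cd22 and Dok3 were below 165 in distal skin and entered through outlet arrays alone, so the count partly follows from the filter. Cd22, an inhibitory B cell co-receptor, rose by 1.43 (adjusted p = 0.0257), from 67.4 in distal skin to 173 in mouse 2 and 226 to 257 on the other outlet arrays. Dok3, an adaptor of B cells and macrophages, rose by 0.99 (adjusted p = 0.034) and Ly86, a partner of a Toll-like receptor on B cells and myeloid cells, by 0.86 (adjusted p = 0.0393). Without the IL-13 or the TGF-beta mouse 1 array none of these 3 passed, at adjusted p from 0.0587 to 0.0922, and Dok3 also missed the threshold without PBS outlet skin (0.0522) or TSLP (0.0565). With no filter on dim probe sets Dok3 (0.0554) and Ly86 (0.0673) missed it too. The list's median difference was 0.44, against -0.02 over all genes. Some genes of the list were not low in distal skin. Plcg2 read 703 there and 495 to 698 at the outlet, and Ebf1 558 and 435 to 706. Pax5, a B-lineage regulator, stayed at or below 18.3 on every array. Several other genes of the list were below 165 on every array and lowest in distal skin. Spib read 22.2 there and 49.9 to 149 at the outlet, and Tnfrsf13c 35.5 and 53.4 to 88.3. Blk read 33.4 and 36.6 to 90.7, and Cxcr5 21.8 and 27.4 to 65.4. The equally dim Fcer2a, Fcrla and Cd180 were lowest in mouse 2 instead, and Pik3ap1 was highest in distal skin.

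The plasma cell and secretory list as a whole did not share the split. Of its 25 genes 22 entered and 0 passed limma's threshold, with a median difference of -0.02. Xbp1, a regulator of the secretory machinery, read 5997 in distal skin and 4634 to 5784 at the outlet, and Sdc1, whose product CD138 marks plasma cells and is also made by keratinocytes, read 4315 and 2067 to 3589. Irf4, a regulator of plasma cells, read 303 in distal skin and 85.4 to 237 at the outlet. These 3 genes were highest in distal skin, where most antibody genes were lowest. Other genes of the list were lowest in distal skin. Txndc5 read 992 there and 1341 to 1661 at the outlet, and Fkbp11 162 and 203 to 437. Sel1l read 248 and 346 to 397, and Slamf7 44.5 and 79.2 to 181. Tnfrsf13b, a receptor for B cell survival factors, read 129 in distal skin and 205 to 322 at the outlet (adjusted p = 0.0995 by limma). Tnfrsf17, the BCMA receptor of plasma cells, stayed at or below 47.0.

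Among 17 genes of plasma cell homing, survival and IgA transport, 5 entered, and all 5 were at least 2-fold higher at the outlet, against 3.9% of all genes. Of these, Vcam1, Cxcr4 and Il6 were below 165 in distal skin and entered through outlet arrays alone, so the count partly follows from the filter. By limma 3 rose: Vcam1, an adhesion molecule, by 2.22 (adjusted p = 0.0101), Cxcl13, which attracts B cells, by 1.50 (adjusted p = 0.00974) and Cxcl12, which attracts plasma cells, by 1.16 (adjusted p = 0.0244). Cxcl13 read 229 in distal skin, 688 in PBS outlet skin, 621 under IL-13, 737 under TSLP, 697 in mouse 1 and 766 in mouse 2. Mouse 2 was thus highest for Cxcl13 while it was the lowest outlet array for most antibody genes. Il6 read 25.9 in distal skin, 106 in PBS outlet skin, 477 under IL-13, 624 under TSLP, 160 in mouse 1 and 121 in mouse 2. Only its IL-13 and TSLP arrays reached 165. Cxcr4, the receptor for Cxcl12, was higher by 1.20 (adjusted p = 0.0671) and Il6 by 2.29 (adjusted p = 0.183). Cxcl12 missed the threshold without IL-13 (adjusted p = 0.0664) or mouse 1 (0.0515).

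Markers of other cells moved with the members only in part. The 4 T cell genes entered had a median outlet minus distal difference of 0.12 and 0 calls by limma. The list's summed signal was 3779 in distal skin and 3988 to 5329 at the outlet. Most of that sum was Thy1, at 2854 in distal skin and 2921 to 4304 at the outlet. Cd3g was highest in distal skin, at 276 against 182 to 244 at the outlet. Summed macrophage markers read 38031 in distal skin and 47027 to 54838 at the outlet. Erythroid genes were higher at the outlet, with a sum of 302 in distal skin and 1093 to 2056 at the outlet. By limma 2 of the 3 entered passed the threshold, against 2.44% of all genes. All 3 were below 165 in distal skin and entered through outlet arrays alone, so the count partly follows from the filter. Of the lymph node stroma list 2 genes entered, Cxcl13 and Ltb, with a median outlet minus distal difference of 1.32. Cxcl13 is also in the homing list above, and Ltb entered through outlet arrays alone. Ltb read 118 in distal skin, 174 in mouse 2 and 293 to 373 on the other outlet arrays. The dim Cr2 read 29.1, 30.4 and 82.2 to 143 in that order. Glycam1, a marker of high endothelial venules, stayed at or below 31.5. The pancreas genes were higher in mouse 2 than in mouse 1, by a median of 2.58, whereas the members were lower there. The part of any of these cells in the members' differences was not tested.

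Over the 6 arrays the genes whose pattern was most like the members' mean were sought among 1209 genes that reached 165 on some array and varied at least 2-fold. The closest were the light chain genes Iglv1 (Pearson r = 0.999) and Igkv8-30 (0.998), followed by Ltb, encoding lymphotoxin beta of lymphocytes (0.987). Next came Actn2 (0.983), Atp1b4 (0.978), Mllt11 (0.975), Car1 (0.974), Nrap (0.972), Myoz2 (0.971) and Samd4 (0.970), of which Actn2, Nrap and Myoz2 encode proteins of striated muscle. For Igha alone they were Synpo2 (0.994), Mapk12 (0.990), Stau2 (0.986), Asb12 (0.980) and Alpk3 (0.965). These correlations rest on 6 arrays that each of the genes shares and describe an ordering.

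Because muscle genes appeared there, 20 genes of skeletal muscle fibres, chosen after that ranking was seen, were read as well, and 19 had a probe set. Their summed signal was 178282 in distal skin, 175136 in PBS outlet skin and 132813 to 189462 on the cytokine arrays, with mouse 1 highest and mouse 2 lowest. Distal skin, low for the members, was thus not low for these genes as a sum, while mouse 2 was low for both. By gene, distal skin was the lowest array for 5 of the 19, and mouse 2 the lowest outlet array for 12. Actn2 was among the 5, at 1479 in distal skin and 2741 to 7216 at the outlet. The part of the muscle genes in the members' differences was not tested.

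**Figure D4:**
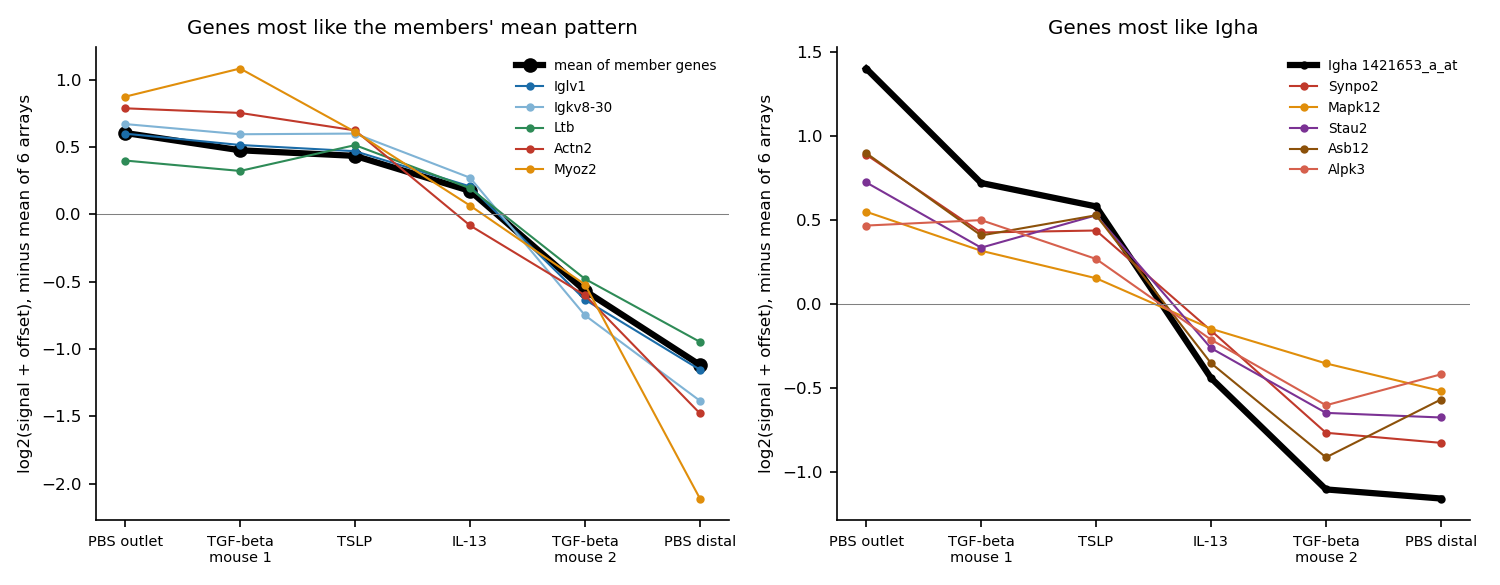
Levels in log2(signal + 27.4), each minus its mean over the 6 arrays, for the members' mean and the genes most like it (left) and for Igha 1421653_a_at and the genes most like it (right). The light chain gene Iglv1 follows the members' mean with r = 0.999, and the right panel shows IL-13 below TSLP for Igha and the 5 genes beside it.

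Among the members themselves, each gene was correlated with the mean of the others over the same 6 arrays. Igha had the lowest value, r = 0.845, and Ms4a1 the highest, 0.991, with Ighm, Jchain, Cd79a, Cd79b and Pou2af1 between 0.937 and 0.978. Igha was also further below PBS outlet skin than the other genes' brightest probe sets under IL-13 and TSLP and in both TGF-beta mice. Which arrays account for its lower r was not tested.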

How the data were processed

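RNA of 6 mouse skin samples was hybridised to single-colour Affymetrix arrays. The values the authors deposited are intensities on a linear scale, which per the submitters' processing notes come from MAS5 (version not given in the sources used here). No genome build is given there, and RefSeq GRCm38.p6 served for symbols and promoters. Arrays were brought to a common 2% trimmed mean (500.16 to 500.2 beforehand) and turned into log2(signal + 27.4). A probe set entered a comparison if 1 compared array reached 165.

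TGF-beta and outlet comparisons used limma 3.58.1 under R 4.3.3 (lmFit, eBayes with intensity trend), with Benjamini-Hochberg adjustment over all probe sets entered and a threshold of 0.05. Pairs of single arrays were judged by size, 2-fold or more, and for TGF-beta that size was asked of both mice. The fit was checked on simulated data. Replicates exist for TGF-beta alone, and the number of arrays limits precision. The plan was to name every member probe set, the genes most like the members and some genes of each list. From a list these were up to 3 genes past the size rule a comparison and direction, by size. The plan was not followed for every list, and pancreas and erythroid genes past the size rule, among others, are not named. Other genes named are markers, genes past limma's threshold or were chosen after their values were seen. The 8 genes and the lists were chosen with earlier results of these data known. Alternatives changed the offset, filter, normalization, probe set choice, trend, control and arrays. The filter settings of the comparison between the TGF-beta mice were added after the data had been seen.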

Additional observations from a re-analysis of the deposited data

Results flagged for a closer look

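For 2 Ighm probe sets and for Jchain, the cytokine arrays had differences of opposite sign from the same PBS outlet array. At Ighm 1427329_a_at the IL-13 array was -0.35 and the TSLP array 0.34 from it on the log2 scale, a difference of -0.69. At Ighm 1427351_s_at they were at -0.08 and 0.28, a difference of -0.36. At Jchain they were at 0.18 and -0.01, a difference of 0.19, where the TSLP value is close to 0. These differences between IL-13 and TSLP, with 1 array each, were not tested. At Ighm 1427329_a_at both TGF-beta mice lay below PBS outlet skin, by 0.59 on average, so that TSLP exceeded TGF-beta by 0.93, which did not pass limma's threshold (adjusted p = 0.547).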

How the results depend on the processing

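Counts of member probe sets refer to the comparisons above. At least 2-fold lower in distal than in PBS outlet skin were 9 members, 2 where every compared array had to reach the filter, 5 with 1 probe set a gene and 0 by limma with the mouse pair's spread. For IL-13 the 3 lower and 1 higher became 1 and 0 with the offset at the 50th percentile, 1 and 0 with 1 probe set a gene, and 0 and 0 by limma with that spread, and the lower became 5 with no filter. With distal skin as the control they became 0 lower and 5 higher, and the TSLP members at least 2-fold higher went from 0 to 9. For TGF-beta against PBS outlet skin the 1 member lower became 0 at the 50th percentile, 4 with no filter, 0 with every array above the filter, 0 with 1 probe set a gene, and 0 against distal skin, where limma called 41 probe sets in all. Leaving out each TGF-beta mouse gave 1 to 7 members lower than PBS outlet skin, 0 to 3 lower and 0 to 1 higher than IL-13, and 0 to 7 lower than TSLP, the upper counts of lower members coming without mouse 1. At the outlet against distal skin the 9 members at least 2-fold higher became 2 at the 50th percentile, 2 with every array above the filter and 5 with 1 probe set a gene, and members past limma's threshold went from 0 to 1 with the offset at the 10th percentile and 1 with every array above the filter. Leaving out 1 outlet array at a time gave 0 to 6 members and 64 to 622 probe sets past the threshold, the lowest total without IL-13, 93 without mouse 1 and the highest without mouse 2, and dropping the filter gave 140. Directions turned mainly with distal skin as the control: IL-13 Igha then read 0.72, 0.82 and 0.93, and TGF-beta read 0.97, 0.77 and 0.82 for Igha, 1.16, 0.70 and 1.01 for Ighm 1425385_a_at, 1427329_a_at and 1427351_s_at, 1.32 for Jchain, 1.08 for Cd79b and 1.58 for Ms4a1. TGF-beta against IL-13 at Igha 1425763_x_at turned to 0.022 at the 50th percentile, and the outlet difference of Ighm 1427870_x_at to -0.029 with quantile normalization. The cause was not tested. No paired analysis was possible because only the TGF-beta group carries mouse numbers. Signal near background limits Cd79a, Pou2af1 and 7 Ighm probe sets, and 1 array a group limits the rest.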
